A study of Mus musculus with 12 samples.

Results

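The proteasome is the cell's main protease for proteins tagged with ubiquitin. Its genes, apart from the immunoproteasome subunits, were followed over 12 Affymetrix mouse arrays. The set took every probe set whose platform annotation gave 1 gene symbol starting with Psma, Psmb, Psmc, Psmd, Psme, Psmf or Psmg, and left out Psmb8, Psmb9 and Psmb10. The rule found 82 of the 20380 probe sets with 1 symbol, for 45 of 12393 genes. The prefix also took in Psmc3ip and Psme3ip1, whose names mark partners of other proteins and not subunits. Psmb11 was not measured, and Psme2 was covered only by a probe set that also names Psme2b, which the rule leaves out.

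Of the arrays, 5 carried RNA of keratinocytes grown from newborn skin, 2 carried newborn skin and 5 carried skin of mice 30 days old. Each culture pooled cells of 5 mice with the same genotype and grew in medium low in Ca2+ for at most 3 days, with no passage. Replicates 1 and 2 of the cultures, and all 5 samples of 30-day skin, had a mixed C57, DBA and FVB background. Cultures 3, 4 and 5 and both samples of newborn skin were FVB, so strain and age cannot be told apart within skin. No treatment, transgene or engineered allele is named in the labels used here. Whether each skin sample is an animal of its own is not stated either, and the spread behind the p-values may then be technical. Values are the deposited log2 RMA values, on which a difference of 1 is a doubling, and the number of arrays limits their precision.

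The proteasome has a barrel-shaped core particle with outer alpha rings and inner beta rings, and some beta subunits cut peptide bonds. A regulatory particle caps the barrel, with ATPases that unfold substrates and non-ATPase subunits that bind and remove ubiquitin. Chaperones help to assemble both particles, and separate activators can dock on the core in place of the regulatory particle. Transcription factors of the cap'n'collar family, encoded by Nfe2l1 and Nfe2l2, raise proteasome genes through antioxidant response elements in their promoters. Interferon exchanges the catalytic beta subunits for the immunoproteasome forms. In the epidermis, keratinocytes use the pathway through proliferation and differentiation.

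The set held 8 alpha subunits, 7 beta subunits, 6 ATPases, 11 non-ATPases, 7 assembly chaperones, 4 activators or inhibitors and the 2 genes included by name alone. Of the 45 genes, 31 had a mean value above the 90th percentile of all genes and 2 lay below the 50th. These 2 were Psmc3ip and Psma8, an alpha subunit known from testis. Psma8 read 4.09 to 4.69 over the arrays, against array medians of 5.86 to 6.01 over all probe sets. RMA values carry no detection call, so whether it was expressed was not tested.

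Promoter sequence is shown for some of the members whose values are described at length and whose upstream region holds the core of an antioxidant response element. The core was searched as TGACNNNGC or TGAGNNNGC on both strands of the RefSeq window from 250 bases before to 50 bases after each start. Printed are the 250 bases before the start, on the strand of the gene, with matches in capitals. A match on the other strand reads here as its reverse complement. Psmd12, at chr11:107479278-107479527 on the plus strand of GRCm38.p6, had 2 matches, beginning 247 and 28 bases before the start. Psmc6, at chr14:45329574-45329823 on the plus strand, had 2 matches, beginning 241 and 227 bases before it. Psmd5, at chr2:34870963-34871212 on the minus strand, had 1 match, 153 bases before it. Psmb5, a catalytic subunit at chr14:54617996-54618245 on the minus strand, had 1 match, 47 bases before it.
Psmd12: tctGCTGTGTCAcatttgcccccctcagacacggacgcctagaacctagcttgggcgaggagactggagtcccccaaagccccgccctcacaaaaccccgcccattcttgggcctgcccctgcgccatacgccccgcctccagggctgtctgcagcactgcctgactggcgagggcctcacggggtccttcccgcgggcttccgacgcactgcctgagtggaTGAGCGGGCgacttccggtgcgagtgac
Psmc6: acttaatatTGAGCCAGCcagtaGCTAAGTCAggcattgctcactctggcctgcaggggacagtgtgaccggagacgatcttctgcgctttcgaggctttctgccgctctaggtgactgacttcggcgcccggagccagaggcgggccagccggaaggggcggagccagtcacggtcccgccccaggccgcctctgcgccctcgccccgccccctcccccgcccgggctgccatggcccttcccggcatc
Psmd5: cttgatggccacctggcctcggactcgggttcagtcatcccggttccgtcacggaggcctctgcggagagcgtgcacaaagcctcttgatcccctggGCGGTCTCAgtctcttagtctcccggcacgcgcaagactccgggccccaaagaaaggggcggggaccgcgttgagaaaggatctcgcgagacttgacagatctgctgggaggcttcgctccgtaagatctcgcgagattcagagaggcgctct
Psmb5: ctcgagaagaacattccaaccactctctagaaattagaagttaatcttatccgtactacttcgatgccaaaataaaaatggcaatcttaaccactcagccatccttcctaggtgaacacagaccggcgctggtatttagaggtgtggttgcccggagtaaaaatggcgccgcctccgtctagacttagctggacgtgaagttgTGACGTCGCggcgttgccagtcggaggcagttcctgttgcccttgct
No printed match overlapped a CCAAT box. A window was given for 37 of the 45 members, and 17 of them (45.9%) held the antioxidant core. The same core stood in 34.9% of 9887 measured genes and in 30.8% of all 27025 genes of the table. A CCAAT box, searched as CCAAT on both strands, stood in 14 members (37.8%) and in 42.3% of the measured genes. The windows of Psme3 and Psmd10 held no antioxidant core, and the match of Psma7 lay after its start, outside the bases printed. Those of Psmb6, Psma6 and Psmd1, also described array by array, held 1 match each and are not printed. These are matches of letters, and binding was not measured.

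The proteasome genes were higher in cultured keratinocytes than in skin. Against the equally weighted mean of both ages of skin, 36 of 45 members (80.0%) were higher and 0 were lower at an adjusted p under 0.05 (limma, Benjamini-Hochberg over 12393 genes), where 24.6% of all genes were higher and 22.4% lower. The median difference of the members was 0.49 on the log2 scale, which is 1.4-fold, against 0.01 for all genes, and 44 of 45 differences were above 0. Centring each array on the genes of epithelial junctions turned the members' median to -0.03, with 6 higher and 9 lower. That scaling takes 1 constant off each array, so it also moved the median of all genes, to -0.51. With it, 6.5% of all genes were higher and 71.7% lower.

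The mean over the members of each array gave the same picture. It was 9.21 ± 0.06 (SD, n = 5) in culture, with arrays from 9.13 to 9.28. For newborn skin it was 8.82 ± 0.08 (SD, n = 2; 8.77 to 8.88), and for 30-day skin 8.63 ± 0.10 (SD, n = 5; 8.46 to 8.70). The 3 groups did not overlap in this mean. In 36 members the group means ran from culture through newborn skin to 30-day skin, in 6 the 2 ages of skin changed places, and in 3 newborn skin stood above culture. In 42 members the highest of the 12 arrays was a culture. In 26 members every culture stood above every skin array (15.3% of all genes did so), and in 0 every culture stood below (13.7%).

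**Figure D1:**
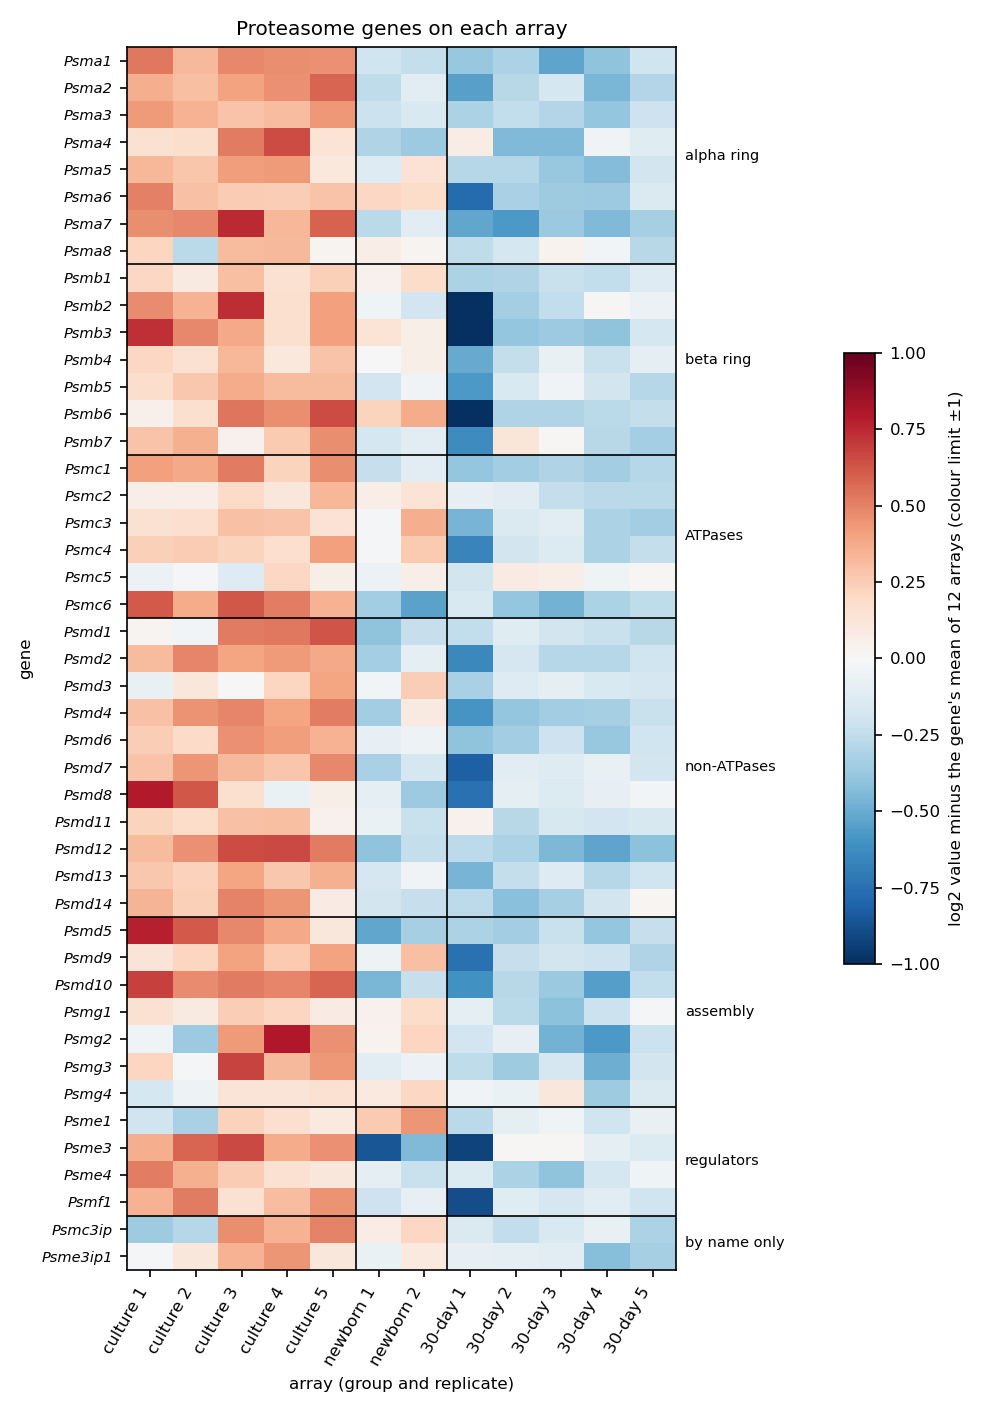
Each row is a proteasome gene, grouped by role, and each column an array, with colour for the log2 value minus the gene's mean over the 12 arrays. The 5 culture columns are above the mean in most rows, and 30-day replicate 1 is the lowest of all 12 arrays in 24 rows.

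Other cells differed between culture and skin as well. Fibroblast genes (6 of 6 measured) averaged 5.51 to 6.17 in culture, 11.51 to 11.59 in newborn skin and 11.21 to 11.68 in 30-day skin. Skeletal muscle genes (4 of 4) averaged 4.91 to 5.43, 11.39 to 11.42 and 11.16 to 11.79, and adipocyte genes (3 of 4) 3.68 to 4.13, 11.32 to 11.34 and 10.54 to 11.23. Keratinocyte genes (5 of 5) averaged 10.69 to 11.08 in culture and at most 10.23 in skin of either age. Of these, Trp63 was not higher in culture, at 8.73 ± 0.42 against 8.85 ± 0.01 in newborn and 9.03 ± 0.20 in 30-day skin (SD, n = 5, 2 and 5). Suprabasal genes (3 of 3), which mark differentiating keratinocytes, averaged 7.36 to 8.63 in culture, 12.43 to 12.55 in newborn skin and 10.83 to 11.22 in 30-day skin. Hair genes (4 of 4) averaged 4.84 to 5.01, 11.58 to 11.60 and 12.25 to 12.80. In bulk RNA, fewer cells of a type and less RNA per cell cannot be told apart. The part of cell makeup in the members' difference was not tested.

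RNA quality also moved with the groups. The gap of the actin probe sets, 3' minus 5', was 0.21 to 0.35 in the mixed cultures, 0.56 to 0.74 in the FVB cultures, 0.99 to 1.14 in newborn skin and 0.67 to 0.82 in 30-day skin without replicate 1. Replicate 1 of 30-day skin had a gap of 1.74 and an 18S rRNA signal of 8.16, against 5.30 to 5.93 in the other 4. The part of the gap in the members' difference was not tested. Without replicate 1 of 30-day skin, 37 members were higher in culture than in skin, among them the same 36.

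**Figure D2:**
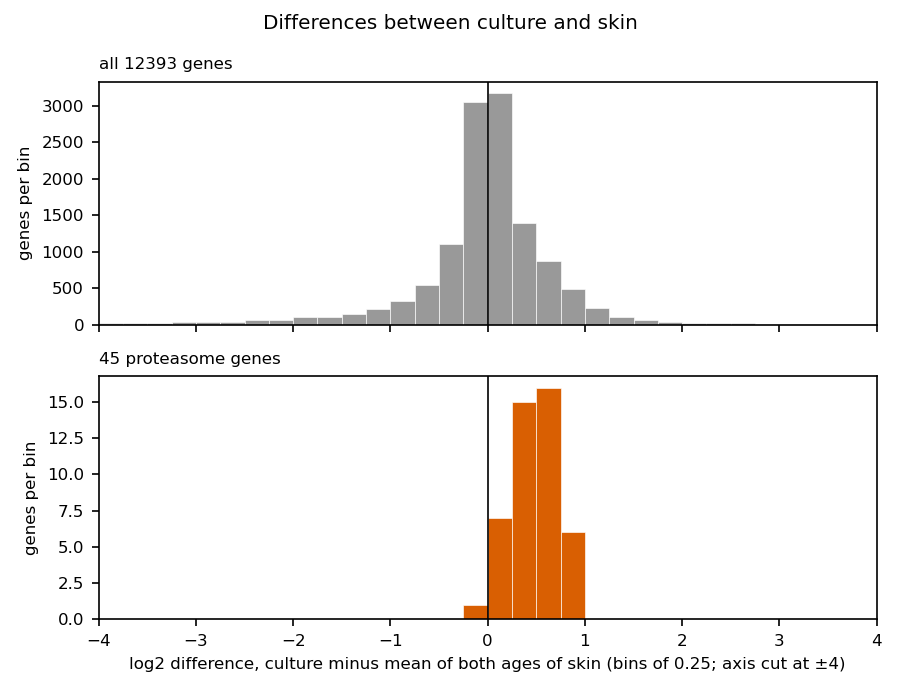
The histograms count genes by their log2 difference between culture and the mean of both ages of skin, for all 12393 genes and for the 45 members. The members lie between -0.11 and 0.93 around a median of 0.49, and all genes spread on both sides of a median of 0.01.

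Alpha subunits, which form the gated ends of the barrel, were higher in culture than in skin in 7 of 8 genes, with a median difference of 0.59. Psma7 moved most among them. On the 5 cultures it read 10.18, 10.19, 10.46, 10.04 and 10.30, on newborn skin 9.44 and 9.61, and on 30-day skin 9.19, 9.14, 9.34, 9.27 and 9.38. Every culture stood above every skin array, and the difference was 0.84 ± 0.09 (SE, 1.79-fold, limma adjusted p = 1.84e-06). Psma1 differed by 0.74 ± 0.08 (SE, limma adjusted p = 1.45e-06). Psma8 was the alpha subunit that missed the threshold, at 0.17 ± 0.11 (SE, limma adjusted p = 0.241).

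Beta subunits were higher in 6 of 7 genes, with differences from 0.26 to 0.67 and a median of 0.47. The 3 catalytic subunits are encoded by Psmb5, Psmb6 and Psmb7. Psmb5, the chymotrypsin-like subunit and the target of bortezomib, read 10.29, 10.38, 10.48, 10.43 and 10.43 in culture, 9.92 and 10.08 in newborn skin, and 9.54, 9.96, 10.08, 9.93 and 9.83 in 30-day skin. No skin array reached the lowest culture, and culture was higher by 0.47 ± 0.10 (SE, 1.39-fold, limma adjusted p = 8.34e-04). Psmb7, the trypsin-like subunit, read 9.68, 9.75, 9.44, 9.66 and 9.86 in culture, 9.22 and 9.29 in newborn skin, and 8.77, 9.52, 9.41, 9.12 and 9.06 in 30-day skin. Culture 3 lay below replicate 2 of 30-day skin, so the groups overlapped in that array, and the difference was 0.46 ± 0.13 (SE, limma adjusted p = 0.00661).

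Psmb6, the caspase-like subunit, was the beta gene that missed the threshold. It read 9.93, 10.04, 10.41, 10.34 and 10.53 in culture, 10.10 and 10.25 in newborn skin, and 8.52, 9.58, 9.58, 9.61 and 9.64 in 30-day skin. Newborn skin lay within the range of the cultures and 30-day skin below it. The difference from both ages together was 0.47 ± 0.19 (SE, limma adjusted p = 0.0541). Replicate 1 of 30-day skin was far below the rest of its group. Without that array Psmb6 passed the threshold, though with a smaller difference, of 0.36.

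ATPases, the motor that unfolds substrates, were higher in 5 of 6 genes, with differences from 0.02 to 0.87. Psmc6 read 9.94, 9.70, 9.95, 9.84 and 9.67 in culture, 8.98 and 8.79 in newborn skin, and 9.17, 8.94, 8.85, 9.01 and 9.07 in 30-day skin. The groups were apart by more than the range within either, with a difference of 0.87 ± 0.09 (SE, 1.83-fold, limma adjusted p = 9.62e-07). Psmc5 lay at 9.01, 9.06, 8.94, 9.28 and 9.13 in culture, 9.01 and 9.13 in newborn skin, and 8.89, 9.15, 9.14, 9.03 and 9.08 in 30-day skin. The 3 groups overlapped, and its difference was 0.02 ± 0.08 (SE, limma adjusted p = 0.861). Psmc2 and Psmc3 passed the threshold with 0.20 ± 0.08 and 0.26 ± 0.09 (SE, limma adjusted p = 0.0430 and 0.0309), and both lost it with the arrays normalised again by quantiles. Centring on epithelial junction genes turned both, with Psmb1, to called lower. For Psmc2 these results are those of its brightest probe set. Its other probe set, with a mean level of 9.88, read 10.11 to 10.35 in culture. In newborn skin it read 9.72 and 9.88, and in 30-day skin at most 9.78, so every culture stood above every skin array.

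Non-ATPase subunits of the regulatory particle were higher in 10 of 11 genes, with a median difference of 0.54. Psmd12, a scaffold subunit of the lid, read 9.21, 9.35, 9.54, 9.55 and 9.41 in culture, 8.49 and 8.65 in newborn skin, and 8.63, 8.57, 8.44, 8.36 and 8.48 in 30-day skin. Every culture exceeded every skin array, by 0.88 ± 0.09 on average (SE, 1.84-fold, limma adjusted p = 7.99e-07). Psmd14, the deubiquitinase of the lid, read 10.04, 9.94, 10.20, 10.14 and 9.78 in culture, 9.52 and 9.47 in newborn skin, and 9.44, 9.28, 9.37, 9.52 and 9.72 in 30-day skin. Its lowest culture, replicate 5, stood just above the highest skin array, and the difference was 0.54 ± 0.10 (SE, limma adjusted p = 3.43e-04). Psmd4, a ubiquitin receptor, was higher by 0.68 ± 0.10 and Psmd2, a large base subunit, by 0.67 ± 0.09 (SE, limma adjusted p = 3.21e-05 and 3.07e-05). Psmd3, another scaffold subunit of the lid, was the 1 non-ATPase gene that missed the threshold, at 0.16 ± 0.10 (SE, limma adjusted p = 0.183).

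Assembly chaperones were divided. Of 7 genes, 4 were higher and 3 missed the threshold. Psmd10, known as gankyrin, binds an ATPase during base assembly and also the retinoblastoma protein. It read 7.23, 7.02, 7.07, 7.04 and 7.13 in culture, 6.09 and 6.32 in newborn skin, and 5.94, 6.27, 6.18, 6.0 and 6.30 in 30-day skin. The gap between groups was wider than the range of any group, with a difference of 0.92 ± 0.09 (SE, 1.90-fold, limma adjusted p = 7.00e-07). Psmd5, another chaperone of the base, read 8.88, 8.71, 8.58, 8.48 and 8.21 in culture, 7.58 and 7.77 in newborn skin, and 7.78, 7.75, 7.88, 7.71 and 7.87 in 30-day skin. Cultures were again all above skin, by 0.84 ± 0.11 (SE, 1.78-fold, limma adjusted p = 1.41e-05).

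The chaperones of the alpha ring, Psmg1 to Psmg4, gave smaller differences. Psmg3 was higher by 0.51 ± 0.11 (SE, limma adjusted p = 0.00151). Psmg1 differed by 0.20 ± 0.08, Psmg2 by 0.34 ± 0.18 and Psmg4 by 0.01 ± 0.10 (SE), and the limma adjusted p was 0.0652, 0.129 and 0.954. Psmg2 had the largest SD of all members within the cultures, 0.46. Its other, dimmer probe set read 6.62 to 7.02 in culture and 5.62 to 6.46 in skin. On that probe set every culture stood above every skin array.

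Among the activators, Psme3 and Psme1 went different ways. Psme3, the nuclear activator also called PA28 gamma, had the largest difference when each gene was read by its brightest probe set. That probe set read 8.20, 8.42, 8.50, 8.21 and 8.30 in culture, 6.98 and 7.40 in newborn skin, and 6.91, 7.85, 7.85, 7.75 and 7.70 in 30-day skin. No skin array reached the cultures, and replicate 1 of 30-day skin lay near the newborn samples, below the other 4. The difference was 0.93 ± 0.16 (SE, 1.90-fold, limma adjusted p = 1.94e-04). Without newborn replicate 1 it was 0.82, below the 0.87 of Psmd10. Another Psme3 probe set read 6.52 to 7.38 in culture but 7.60 and 7.61 on replicates 2 and 3 of 30-day skin, above every culture, and its difference from skin was 0.49 ± 0.28 (SE, limma adjusted p = 0.183). With the mean of its probe sets, Psme3 was higher than skin by 0.50 ± 0.14 and lost its call against 30-day skin, at 0.31 ± 0.14 (SE, limma adjusted p = 0.0865). Psme4, which encodes the activator PA200, was higher by 0.47 ± 0.09 (SE, limma adjusted p = 7.94e-04). Psmf1, a proteasome inhibitor, was higher by 0.57 ± 0.13 (SE, limma adjusted p = 0.00238).

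Psme1 encodes an interferon-induced subunit of the cytoplasmic activator. It read 8.75, 8.63, 9.18, 9.12 and 9.05 in culture, 9.21 and 9.39 in newborn skin, and 8.68, 8.86, 8.91, 8.75 and 8.88 in 30-day skin. Newborn skin was above every culture, and 30-day skin lay within the range of the cultures. The difference from both ages was -0.11 ± 0.11 (SE, limma adjusted p = 0.447), the only one of the 45 below 0. The probe set that names both Psme2, the partner subunit of Psme1, and Psme2b was at 8.86 ± 0.27 in the cultures, 8.92 ± 0.07 in newborn and 8.43 ± 0.10 in 30-day samples (SD, n = 5, 2 and 5). It is no member and was not tested.

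**Figure D3:**
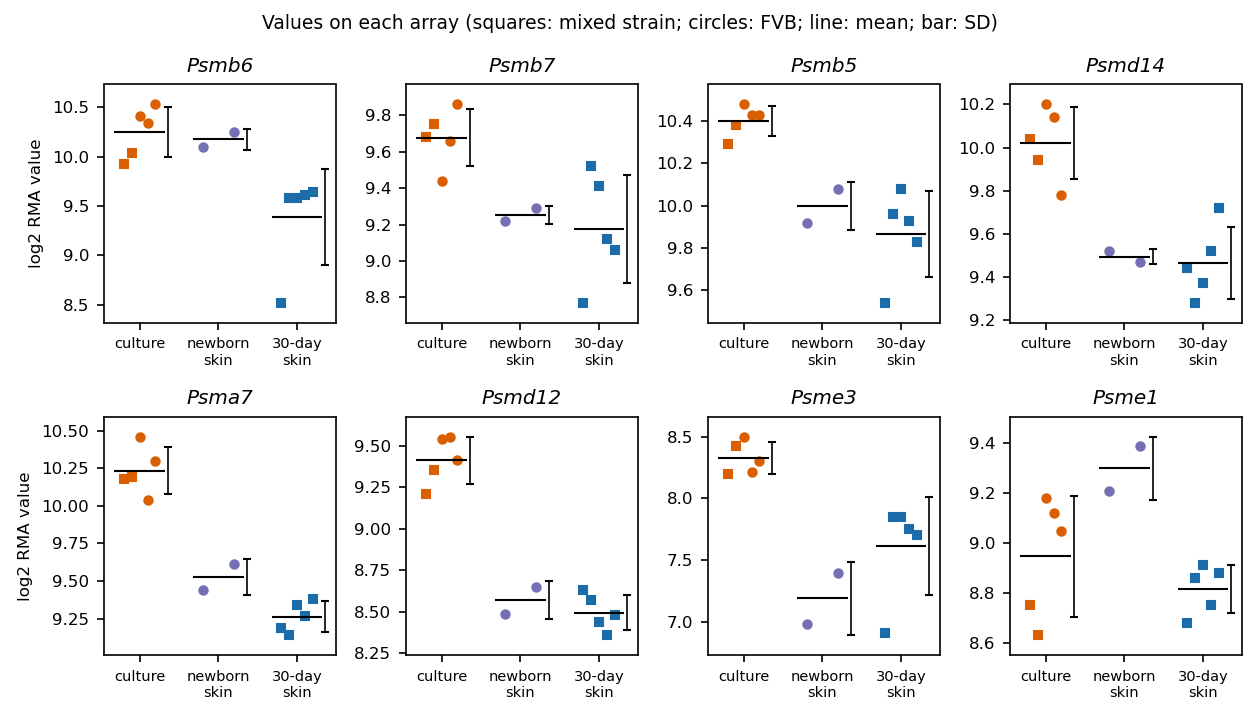
Each panel gives a gene's log2 value on every array of the 3 groups, with squares for the mixed background, circles for FVB, a line for the mean and a bar for the SD. Psma7, Psmd12 and Psme3 show every culture above skin, whereas newborn skin reaches the cultures in Psmb6 and exceeds them in Psme1.

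Probe sets of the same gene did not always point the same way. Taken 1 by 1, 53 of the 82 probe sets were higher in culture than in skin and 0 were lower, where 25.1% and 18.9% of the 20380 probe sets with 1 symbol were. Of the 37 probe sets that were not the brightest of their gene, 17 were higher. Those with a mean level below 6 were higher in 4 of 17 cases, and those from 6 upward in 13 of 20. Psma5, Psmd7 and Psmf1 had a probe set whose difference had the opposite sign, such as -0.03 ± 0.07 for Psma5 against 0.46 ± 0.09 for its brightest (SE).

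The cultures came from newborn mice, so newborn skin is the comparison that keeps age alike. Here 22 of 45 members (48.9%) were higher in culture and 0 were lower (limma), where 17.9% of all genes were higher and 18.6% lower. The median difference was 0.41, which is 1.33-fold, against 0.01 for all genes. Centring on epithelial junction genes left 1 member higher and 18 lower, with a median of -0.30 against -0.69 for all genes. With that centring 3.18% of all genes were higher and 76.7% lower. The call count rested on the 2 newborn arrays, and fell to 14 without replicate 1 and to 16 without replicate 2. Averaging the most alike arrays left 13. In 29 members every culture exceeded both newborn arrays, and in Psme1 every culture lay below both, where 24.0% of all genes stood wholly above and 23.7% wholly below.

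Non-ATPases were higher in 9 of 11 genes, alpha subunits in 5 of 8, ATPases in 2 of 6, assembly chaperones in 2 of 7 and beta subunits in 1 of 7. Psme3 had a difference of 1.14 ± 0.22 (SE, 2.20-fold, limma adjusted p = 7.12e-04), which fell to 0.92 without newborn replicate 1, where Psmc6 gave 1.03. It was followed by Psmc6 with 0.94 ± 0.12, Psmd5 with 0.90 ± 0.15, Psmd10 with 0.89 ± 0.12, Psmd12 with 0.84 ± 0.12 and Psma7 with 0.70 ± 0.12 (SE). The lid genes Psmd14 and Psmd7 were higher by 0.53 ± 0.13 and 0.61 ± 0.17 and the activator gene Psme4 by 0.44 ± 0.13 (SE), though another probe set of Psmd7, of low level, gave -0.12 ± 0.13. Psmg3 and Psma5 just missed, at 0.40 ± 0.15 and 0.30 ± 0.12 (SE, limma adjusted p = 0.0522 and 0.0618). Psmb5 was the beta gene that passed, at 0.41 ± 0.13 (SE, limma adjusted p = 0.0241). Psmb7 gave 0.42 ± 0.17 and Psmb6 0.08 ± 0.26 (SE, limma adjusted p = 0.0687 and 0.861). Psme1 was lower in all 5 cultures than in both newborn arrays, by -0.35 ± 0.15 (SE), and missed the threshold (limma adjusted p = 0.0771), but passed it with arrays normalised again by quantiles.

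Against 30-day skin, 40 of 45 members (88.9%) were higher in culture and 0 were lower (limma), where 26.5% of all genes were higher and 21.9% lower. The median difference was 0.57, or 1.48-fold, against 0.02 for all genes. Centring on epithelial junction genes left 20 higher and 1 lower, with a median of 0.23 against -0.32. With that centring 11.6% of all genes were higher and 51.4% lower. In 36 members every culture exceeded every 30-day array, and in 0 the reverse held, where 19.9% and 16.8% of all genes did. The cultures are those used against newborn skin. All 7 beta subunits and all 11 non-ATPases passed, with 7 of 8 alpha subunits, 5 of 6 ATPases, 6 of 7 assembly chaperones and 3 of 4 activators or inhibitors.

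The largest differences from 30-day skin were those of Psma7 (0.97 ± 0.09), Psmd10 (0.96 ± 0.09), Psmd12 (0.92 ± 0.09), Psmb3 (0.90 ± 0.14), Psmb6 (0.86 ± 0.20) and Psma1 (0.82 ± 0.08), all SE. Psmb3 and Psmb6 were among the members with a low replicate 1 in that group, and Psmb6 lost its call with strain as a covariate. A second probe set of Psmb3, with a mean level of 9.80 against 9.81 for the one used, gave 0.25 ± 0.12 and was not called (SE, limma adjusted p = 0.128). There replicate 1 was the highest of the 30-day arrays, at 10.03. The other catalytic genes Psmb5 and Psmb7 were higher by 0.53 ± 0.10 and 0.50 ± 0.13, Psmd14 by 0.55 ± 0.10, and the activator genes Psme3 and Psme4 by 0.71 ± 0.16 and 0.50 ± 0.10 (SE).

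Probe sets of 5 members disagreed in sign against 30-day skin. The brightest gave 0.62 ± 0.09 for Psma5, 0.35 ± 0.08 for Psmd11, 0.80 ± 0.10 for Psmd4, 0.62 ± 0.13 for Psmd7 and 0.65 ± 0.14 for Psmf1, all called higher. The lowest of their others gave -0.06 ± 0.08, -0.13 ± 0.08, -0.06 ± 0.08, -0.11 ± 0.10 and -0.07 ± 0.09 in the same order (SE), and none of these was called. The 5 members that missed the threshold were Psma8, Psmc3ip, Psmc5, Psme1 and Psmg4, with differences between 0.03 and 0.32. Psma8 gave 0.26 ± 0.12, Psmc3ip 0.32 ± 0.16 and Psmg4 0.13 ± 0.10 (SE, limma adjusted p = 0.0749, 0.115 and 0.306). Psmc5 gave 0.03 ± 0.09 and Psme1 0.13 ± 0.11 (SE, limma adjusted p = 0.835 and 0.356).

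**Figure D4:**
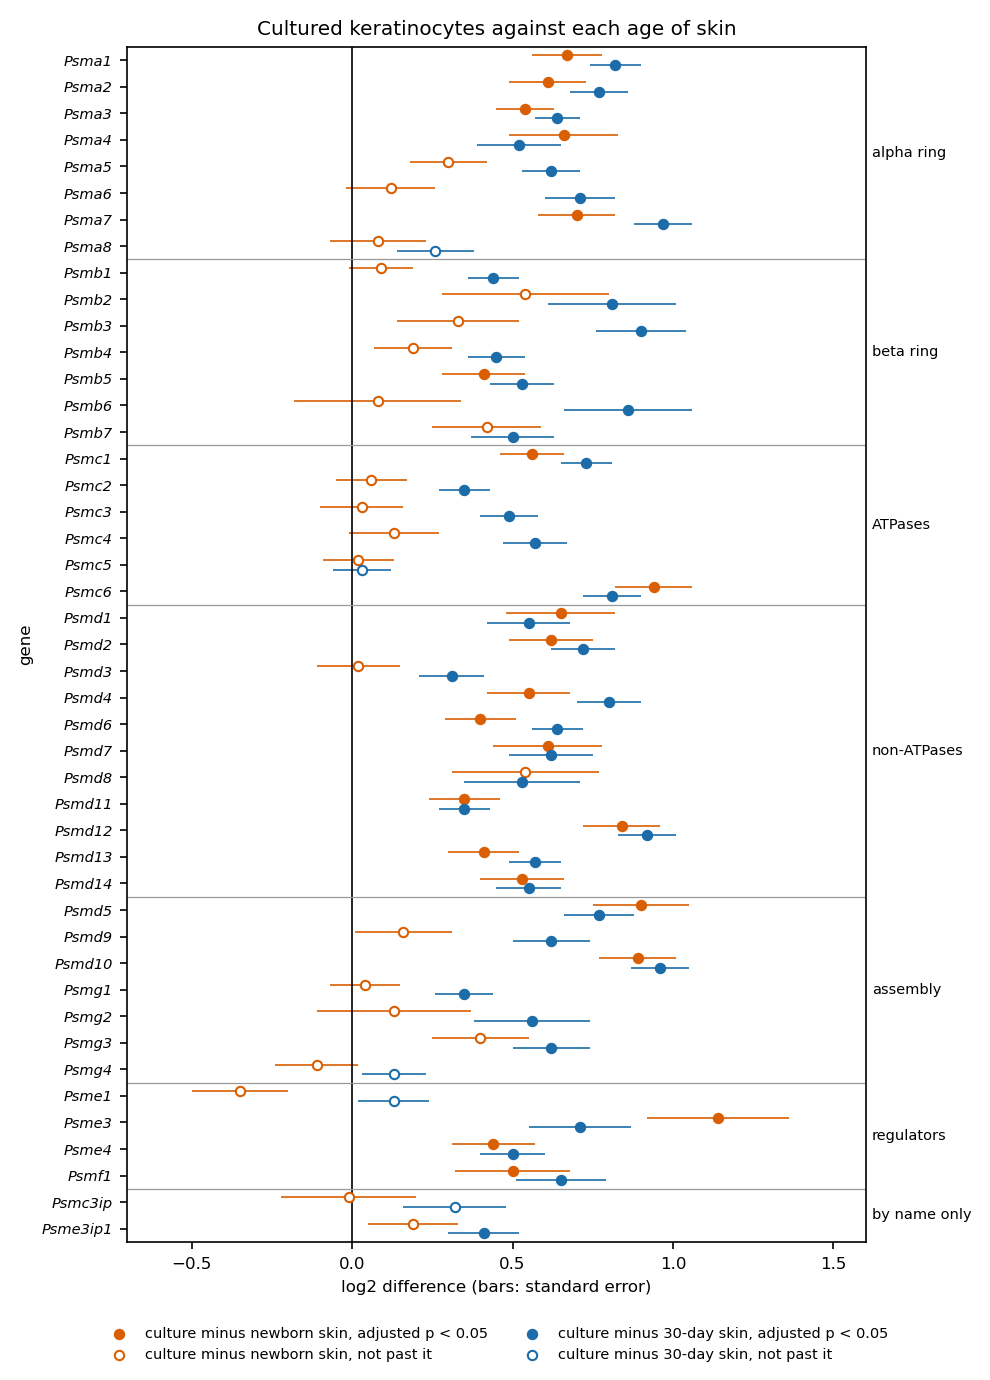
Points give each member's log2 difference of culture from skin of either age, with bars for the standard error. Of the 45 members, 39 lie further to the right against 30-day skin, and Psme1 stands at -0.35 against newborn and 0.13 against 30-day skin.

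The set was lower in 30-day than in newborn skin in a small number of members. At an adjusted p under 0.05 (limma), 5 of 45 (11.1%) were lower and 0 were higher, where 9.84% of all genes were lower and 5.91% higher, so the share of lower members was near that of all genes. The median difference was -0.19 against -0.01 for all genes, and 39 of 45 were below 0. In 20 members every 30-day array was below both newborn arrays, and in 0 above, where 20.5% and 15.1% of all genes did so. Centring on epithelial junction genes raised the count of lower members to 35, while it moved the median of all genes to -0.38. With that centring 40.1% of all genes were lower. The calls rested on the 2 newborn arrays: 1 member was lower without replicate 1 and 0 without replicate 2. Without 30-day replicate 2 it was 2 members, and without replicate 4 or 5 it was 3. With the strain difference of the cultures taken off, 2 were lower and 1 was higher.

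The members that were lower belonged to different parts of the complex. Psma6, an alpha subunit, read 10.20 and 10.18 in newborn skin and 9.23, 9.67, 9.64, 9.63 and 9.85 in 30-day skin. All 5 older samples were below both newborn samples, replicate 1 most of all, with a difference of -0.59 ± 0.14 (SE, limma adjusted p = 0.0104). Psme1 differed by -0.48 ± 0.15, the ATPase genes Psmc3 and Psmc4 by -0.45 ± 0.13 and -0.43 ± 0.14, and the beta gene Psmb1 by -0.35 ± 0.10 (SE, limma adjusted p = 0.0370, 0.0248, 0.0489 and 0.0276). For Psmb1, another probe set of low level gave 0.30 ± 0.11, a difference of the opposite sign. Another Psma6 probe set, with a mean level of 9.24, gave -0.29 ± 0.13 and was not called (SE, limma adjusted p = 0.173). Of the 37 probe sets that were not the brightest of their gene, 0 were called between the ages.

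Catalytic subunits were not among the 5. Psmb6 had the largest difference between the ages, -0.78 ± 0.26 (SE), and missed the threshold (limma adjusted p = 0.0554). Its values fell into 3 levels, with newborn skin on top, 4 of the older samples in between and replicate 1 lowest. Psmb3 gave -0.56 ± 0.19 and the chaperone gene Psmd9 -0.46 ± 0.15 (SE, limma adjusted p = 0.0586 and 0.0588). Without that replicate, Psmb6 and Psmb3 passed, though with smaller differences, of -0.57 and -0.43. Psmd14 gave -0.02 ± 0.13, Psme4 -0.05 ± 0.13, Psmb5 gave -0.13 ± 0.13 and Psmb7 -0.08 ± 0.17 (SE), and none of the 4 was called. Psme3 ran against the set, at 0.43 ± 0.22 (SE, limma adjusted p = 0.221), and was called higher in 30-day skin without replicate 1.

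Few members differed between the strains of the cultures. The 2 mixed-strain cultures were set against the 3 FVB cultures, and 1 of 45 members (2.22%) was higher and 4 (8.89%) were lower (limma), where 3.18% of all genes were higher and 6.66% lower. In 5 members the mixed cultures stood wholly above the FVB cultures and in 15 wholly below, where 20.4% and 25.4% of all genes did. The member mean was 9.13 to 9.17 in the mixed cultures and 9.22 to 9.28 in the FVB cultures. The actin gap moved with strain, at 0.21 to 0.35 against 0.56 to 0.74, and fibroblast genes averaged 6.08 to 6.17 against 5.51 to 5.59. Melanocyte genes (3 of 4 measured) averaged 9.41 to 9.56 against 7.38 to 7.60. Their part in these differences was not tested.

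Psmd8, a lid subunit, read 10.85 and 10.68 in the mixed cultures and 10.22, 9.99 and 10.12 in the FVB cultures. It was the member that was higher with the mixed background, by 0.65 ± 0.18 (SE, 1.57-fold, limma adjusted p = 0.0394). Psmg2 read 6.98 and 6.66 against 7.45, 7.82 and 7.48, and was lower by -0.76 ± 0.17 (SE, limma adjusted p = 0.00951). On the other probe set of Psmg2 the strains lay closer, at 6.77 and 6.62 against 6.80, 7.02 and 6.85. Psmd1, a large base subunit, read 9.48 and 9.42 against 9.97, 9.98 and 10.08, lower by -0.56 ± 0.10 (SE, limma adjusted p = 0.00363). In Psmd8, Psmg2 and Psmd1 the strains did not overlap.

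Psme1 was lower with the mixed background by -0.43 ± 0.11 (SE, limma adjusted p = 0.0270). Psmc3ip, which works in meiotic recombination and not in the proteasome, was lower by -0.76 ± 0.11 (SE, limma adjusted p = 6.58e-04). Without culture replicate 2, 1 of these 5 calls was kept, and without replicate 1, 3 or 4 it was 3. With the most alike arrays averaged, 0 were. The catalytic subunits Psmb5 (-0.11 ± 0.14), Psmb6 (-0.45 ± 0.26) and Psmb7 (0.06 ± 0.19) missed the threshold, as did Psmd14 (-0.05 ± 0.15) and Psme3 (-0.03 ± 0.24). Psmd5 (0.37 ± 0.13), Psmg3 (-0.38 ± 0.13) and Psme4 (0.26 ± 0.12) came nearest to it among the members that missed (SE, limma adjusted p = 0.0803, 0.0929 and 0.208). Psmd11 and Psmf1 gave -0.01 ± 0.12 and 0.13 ± 0.20, while a dimmer probe set of each was lower in the mixed cultures, by -0.64 ± 0.18 and -0.58 ± 0.14 (SE).

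**Figure D5:**
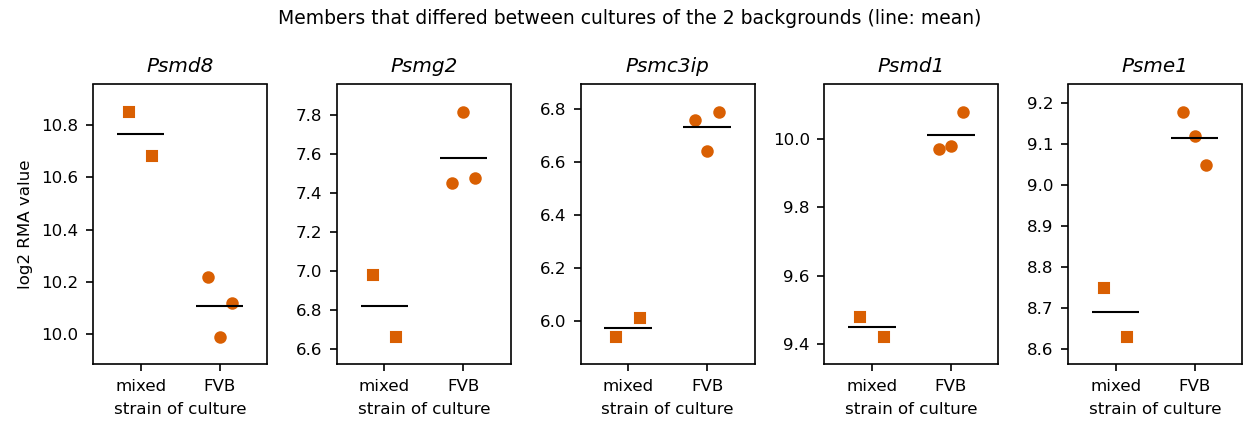
Each panel gives a member's log2 value on the 2 mixed-strain and 3 FVB cultures, with a line for the mean. Psmd8 is higher in the mixed cultures, and Psmg2, Psmc3ip, Psmd1 and Psme1 are lower, with no overlap between the strains.

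Other genes of the ubiquitin pathway were also mostly higher in culture than in skin, though centring on epithelial junction genes left 5 higher and 5 lower, with a median of -0.10. With that centring 6.5% of all genes were higher and 71.7% lower, with a median of -0.51. Of 30 listed genes, 20 were measured, and 15 were higher and 1 lower, with a median of 0.42 against 0.01 for all genes (limma), of which 24.6% were higher and 22.4% lower. Nfe2l2, a transcription factor of the oxidative stress response, read 8.86, 8.80, 9.61, 9.49 and 9.53 in culture, 8.03 and 7.90 in newborn skin, and 8.10, 7.97, 7.72, 7.79 and 7.96 in 30-day skin. All cultures were above skin, the mixed cultures less so than the FVB cultures, with a difference of 1.32 ± 0.15 (SE, 2.50-fold, limma adjusted p = 4.11e-06). Nfe2l1, its relative that raises proteasome genes when proteasome activity is short, was higher by 0.43 ± 0.09 (SE, limma adjusted p = 0.00145). Ngly1, the glycanase that processes the Nfe2l1 protein, was the listed gene that was lower, at -0.84 ± 0.12 (SE, limma adjusted p = 2.84e-05).

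Among the partners of the proteasome, Pomp, which helps to mature the core, was higher by 0.41 ± 0.08 in culture. The shuttle genes Ubqln2 and Rad23b, whose products carry ubiquitinated proteins to the proteasome, were higher by 0.94 ± 0.16 and 0.80 ± 0.11. Vcp, the unfolding ATPase, was higher by 0.47 ± 0.08, and its cofactor gene Ufd1 by 0.95 ± 0.11. Sqstm1, an autophagy receptor, was higher by 0.86 ± 0.17 (all SE). Of the 20 genes, 12 were higher and 1 lower when culture was set against newborn skin, where 17.9% and 18.6% of all genes were. Against the older skin 13 were higher and 1 lower, beside 26.5% and 21.9%. The replicate block left 8 higher and 1 lower against newborn skin, where 13.9% and 15.7% of all genes were. Epithelial centring left 1 higher and 4 lower against newborn skin, beside 3.18% and 76.7%. Between the ages, Rad23b (0.50 ± 0.14) and Akirin2 (0.46 ± 0.10), which brings proteasomes into the nucleus, were higher in 30-day skin and 0 of the 20 were lower, where 5.91% and 9.84% of all genes were. The replicate block left neither call, and 6 of the 20 were lower with epithelial centring, where 40.1% of all genes were. Both comparisons with newborn skin rest on its 2 arrays.

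The immunoproteasome subunits, which the set leaves out, followed another order of groups. Psmb8 had means of 5.85 ± 0.22 for culture, 5.68 ± 0.01 for newborn and 6.70 ± 0.19 for 30-day samples, and Psmb9 of 5.54 ± 0.16, 5.61 ± 0.13 and 6.63 ± 0.13 (SD, n = 5, 2 and 5). Both were higher in 30-day than in newborn skin, by 1.03 ± 0.16 and 1.02 ± 0.13 (SE, limma adjusted p = 4.47e-04 and 8.16e-05), and neither passed between culture and newborn skin. Psmb10 averaged 7.21 to 7.22 in all 3 groups. T cell genes averaged 5.02 to 5.30 in culture, 5.16 to 5.24 in newborn skin and 5.43 to 5.75 in 30-day skin, and genes of the interferon response 5.70 to 5.91, 5.68 to 5.75 and 6.18 to 6.55. Of the 6 interferon genes measured, 3 are the immunoproteasome genes themselves, so this average partly repeats their values. Of the others, Gbp2 averaged 4.61, 4.88 and 5.91, Ifit1 5.31, 4.68 and 5.07, and Irf7 6.31, 6.22 and 6.45, in the same order. The part of interferon in the difference of Psmb8 and Psmb9 was not tested.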

How the data were processed

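RNA of 12 samples was hybridised to Affymetrix arrays, 1 array per sample, and groups were taken from the sample titles. The deposited table holds log2 values that the authors made by RMA, per the submitters' processing notes. The version is not given in the sources used here. RMA includes a quantile normalisation of the single probes, although skin and culture differ in their cells. The resulting values do not share 1 distribution. Their median over the 12393 genes was 6.19 to 6.24 on the cultures and 6.33 to 6.40 on the skin arrays. Values ran from 2.89 to 13.59.

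Of 22690 probe sets, 64 controls were left out; 20380 had 1 gene symbol, 691 several and 1555 none, and 20351 matched the RefSeq gene table. The brightest probe set stood for each of 12393 genes. All differences are from limma 3.58.1 (lmFit, eBayes) under R 4.3.3, two-sided, on all 12 arrays with 1 mean per group, or 4 means for strain, adjusted by Benjamini-Hochberg over all genes at 0.05. Errors of differences are SE. Tables were made with numpy 2.4.6 and pandas 2.3.3, and drawings with matplotlib 3.10.9, in Python 3.11.15.

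The members, the pathway and marker lists and the tests were chosen with earlier results of these data known. Named are, for each comparison, the most changed called members, up to 6 in each direction, up to 3 that missed the threshold, Psmb5, Psmb6, Psmb7, Psmd14, the activators, and members whose probe sets disagree. Psma1, Psma8, Psmc2, Psmc3, Psmc5, Psmd2, Psmd3, Psmd4, Psmg3 and Psmg4 and the pathway genes given as examples were named beyond this rule after their values were seen.

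Replicate numbers do not pair the samples: same-numbered samples deviated from their group means with correlations from -0.28 to 0.23. On simulated arrays of 12393 genes, the fit of culture against skin recovered 62.7% of genes changed by 0.5 and 92.5% of those changed by 1. For newborn skin these shares were 35.8% and 88.1%, for 30-day skin 56.7% and 98.5%, for age 32.8% and 85.1%, and for strain 14.9% and 79.1%. Few genes were changed there, 67 at each of these sizes, with independent normal noise. In the data 24.6% of genes were called higher and 22.4% lower between culture and skin. With few changed genes the adjusted p is stricter, so these shares do not give the recovery in the data. Alternatives covered normalisation, centring on the genes of epithelial junctions, the choice of probe set, leaving out the dimmest 40% of genes, the threshold, an intensity trend, strain as a covariate, a replicate block and leaving out each array. Averaging the most alike arrays was added after seeing the data. It merged both newborn samples, both mixed-strain cultures and pairs of 30-day samples, with correlations of 0.993 to 0.9956 within a pair. Newborn skin and the mixed cultures then rest on 1 array each.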

Additional observations from a re-analysis of the deposited data

Results flagged for a closer look

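In each group of 5 arrays, the highest and lowest array of each of the 45 members, and of their mean, was compared with the rest of the group by Dixon's ratio. Chance gives such a gap in about 1 in 20 groups, and 11 of 92 showed it, each in a single member and none in the mean. In 10 of the 11 the array was replicate 1 of 30-day skin, the array with the widest actin gap and the highest 18S rRNA signal, and each time it was the lowest. Psmb2 read 8.02 there, against 8.94 to 9.29 in the other 4 arrays. Psmb3 read 8.80 against 9.41 to 9.64, and Psmb6 8.52 against 9.58 to 9.64. On the second Psmb3 probe set, of like level, replicate 1 was instead the highest of the group, at 10.03 against 9.37 to 9.65. The lid and base subunits Psmd2, Psmd3, Psmd7 and Psmd8 read 9.03, 9.05, 7.33 and 9.31, against lowest values of 9.39, 9.21, 7.96 and 9.92 in the rest. The chaperone gene Psmd9 read 6.38 against at least 6.83, the activator gene Psme3 6.91 against at least 7.70, and the inhibitor gene Psmf1 6.78 against at least 7.47. The remaining gap was in culture, where Psma6 read 10.50 in replicate 1 and 10.24 to 10.29 in the other 4.

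In 5 members the difference between culture and skin depended on the age of the skin, since the 30-day and newborn samples themselves differed in limma at an adjusted p under 0.05. Psma6 differed by -0.59, Psmb1 by -0.35, Psmc3 by -0.45, Psmc4 by -0.43 and Psme1 by -0.48 between 30-day and newborn skin. Strain and age cannot be told apart in these 5.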

How the results depend on the processing

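Between culture and skin, 36 or 37 members were higher under the mean of probe sets, the dim filter, the intensity trend and strain covariate. Of all genes 26.2%, 35.0%, 24.6% and 26.1% were higher, in the same order. The dim filter left 44 of the 45 members in the fit. Normalising again by quantiles gave 34 higher, where 31.1% of all genes were. The members' median was then 0.33 above that of all genes, against 0.48 without it. A threshold of 0.01 gave 30 higher, where 19.6% of all genes were. The strain covariate kept the same 36, the dim filter and the trend each added Psmb6, and the mean of probe sets lost Psmd9 and gained Psmg1 and Psmg2. Leaving out 1 array gave 31 to 39 higher and 0 lower. Against newborn skin it gave 14 to 25 higher and 0 to 1 lower, against 30-day skin 39 to 41 higher, between ages 0 to 1 higher and 0 to 6 lower, and between strains 0 to 1 higher and 1 to 5 lower.

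Centring on epithelial junction genes had the strongest effect. It gave 6 higher and 9 lower members for culture against skin (median -0.03), 1 and 18 against newborn skin (median -0.30), 20 and 1 against 30-day skin, and 35 lower between ages. Its shift of all genes was -0.51, -0.69, -0.32 and -0.38. With the centring, 6.5%, 3.18%, 11.6% and 2.17% of all genes were higher, and 71.7%, 76.7%, 51.4% and 40.1% lower. It turned 21 members from above to below 0 with a call on either side for culture against skin. Of these, Psmb1, Psmc2 and Psmc3 went from called higher to called lower, 13 lost a higher call, and Psma8, Psmc5, Psmd3, Psmg1 and Psmg4 became called lower. Against newborn skin 32 turned, 17 by losing a higher call and 15 by gaining a lower one, and against 30-day skin Psmd3 and Psmc5 did. Values of those chosen by the naming rule were for culture against skin Psmg1 (-0.32), Psmb5 (-0.05), Psmb7 (-0.06), Psme4 (-0.05) and Psma5 (-0.06). Against newborn skin they were Psma7 (-0.00), Psma5 (-0.40), Psmb5 (-0.30), Psmb6 (-0.62), Psme4 (-0.26), Psmd14 (-0.18) and Psmd7 (-0.09).

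Normalising again by quantiles gave 1 lower member against newborn skin, 3 lower between ages and 2 higher between strains. At a threshold of 0.01, 0 were lower between ages and 0 higher between strains. The strain covariate gave 1 higher and 2 lower between ages. Against 30-day skin it kept 34 of the 40 higher calls and lost Psma4, Psmb6, Psmd1, Psmd3, Psme3ip1 and Psmg2. Averaging the most alike arrays gave 13 higher against newborn skin and 0 calls between ages and between strains, with fewer samples. The replicate block gave 32 higher for culture against skin, 15 higher and 1 lower against newborn skin, 39 higher against 30-day skin and 5 lower between ages, 3 of them the same. The cause of the other changes was not tested. Newborn skin rests on 2 arrays, which limits both comparisons that use it.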
